A study of Mus musculus with 7 samples.

Results

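Alveolar macrophages live in the airspaces of the lung, take up surfactant lipid and so handle large amounts of cholesterol. Described here are 7 genes of sterol synthesis and of its feedback control, out of 47643 genes in a deposited expression table of sorted mouse alveolar macrophages. The genes were taken by symbol: the transcription factor gene Srebf2, its inhibitor gene Insig1, and the enzyme genes Hmgcs1, Idi1, Fdft1, Sqle and Dhcr7. All 7 symbols were found once each, and all 7 passed the filter on low values, a mean of at least 1 TPM over the libraries.

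The study sequenced poly(A) RNA of 7 libraries from lung macrophages, and its question is how loss of the ubiquitin ligases Siah1a and Siah2 alters them. The 3 wild-type libraries (WT) carry the sorting phenotype CD11c+ F480+ SiglecF+ in their labels, which do not say whether the animals carried floxed alleles or Cre. The other 3 replicated libraries are labelled cSiah1a/2f/f::Lyz2cre (Lyz2cre below), floxed Siah1a and Siah2 with Cre driven from Lyz2, the lysozyme M gene, which is also active in neutrophils. A single library is labelled cSiah1a/2f/f::CD11ccre (CD11ccre below), the same floxed genes with Cre under the CD11c promoter, which is also active in dendritic cells. No treatment, time, age or strain is given, and nothing says that the replicates came from separate animals, so a p-value here reflects only how much these libraries vary, which may be technical.

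As background, cholesterol is built from acetyl-CoA through mevalonate and squalene, and each cell adjusts the pathway to its own sterol content. When membrane sterol is low, the protein SCAP carries SREBP2, the product of Srebf2, to the Golgi, where it is cut and released to switch on the genes of synthesis and uptake. When sterol is high, INSIG1 holds SCAP in the endoplasmic reticulum, and because Insig1 is itself switched on by SREBP2 its transcript follows the activity of the pathway.

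SREBP2 acts through sterol regulatory elements in the promoters of its targets, usually beside a CCAAT box. The stretches below are shown because they stand in front of the factor gene, the feedback gene, the most abundant enzyme gene and the enzyme gene that differed most between the groups. They come from RefSeq's promoter table for GRCm38.p6 (mm10), which matched 5 of the 7 genes (not Fdft1 or Sqle). Each runs 5′ to 3′ on the plus strand and ends at the last base of the window or, where an annotated exon begins inside it, just before that exon. Capitals mark matches to 3 sets of letters, searched on both strands and chosen with these sequences in view. The sterol regulatory element was searched as TCACNCCA. The CCAAT box appears in its reverse complement wherever it is marked below. The E-box was searched as CACGTG.
Srebf2, chr15:82147019-82147180: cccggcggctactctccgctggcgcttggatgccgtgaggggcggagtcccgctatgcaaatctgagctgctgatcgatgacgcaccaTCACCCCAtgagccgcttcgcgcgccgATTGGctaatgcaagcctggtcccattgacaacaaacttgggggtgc
Insig1, chr5:28071162-28071362: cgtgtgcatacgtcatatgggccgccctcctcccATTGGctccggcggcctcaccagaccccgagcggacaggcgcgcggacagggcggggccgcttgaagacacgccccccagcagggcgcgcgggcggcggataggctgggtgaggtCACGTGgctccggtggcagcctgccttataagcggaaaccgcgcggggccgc
Hmgcs1, chr13:119690101-119690350: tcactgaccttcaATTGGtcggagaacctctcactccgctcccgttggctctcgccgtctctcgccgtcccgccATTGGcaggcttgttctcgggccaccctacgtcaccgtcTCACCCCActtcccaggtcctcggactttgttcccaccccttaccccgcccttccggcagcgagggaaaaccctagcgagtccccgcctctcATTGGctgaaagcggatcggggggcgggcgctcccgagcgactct
Dhcr7, chr7:143822917-143823144: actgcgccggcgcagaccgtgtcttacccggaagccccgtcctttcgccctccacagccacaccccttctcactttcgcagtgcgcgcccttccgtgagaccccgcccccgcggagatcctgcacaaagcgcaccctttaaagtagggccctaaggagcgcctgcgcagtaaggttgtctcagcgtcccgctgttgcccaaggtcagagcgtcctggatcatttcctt

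In the 250 bases before the RefSeq start, Srebf2 and Hmgcs1 each held 1 match to TCACNCCA, which began 162 and 137 bases before the start. Of all 32851 promoter windows of that length, 3.67% held this match. A CCAAT box stood in Srebf2 (1), Insig1 (1), Hmgcs1 (3) and Idi1 (2), and 33.8% of all windows held at least 1. Those of Idi1, 45 and 14 bases before its RefSeq start, lay past the start of an annotated exon. The E-box of Insig1 began 101 bases before its start, and 6.02% of windows held one. None of these matches overlapped another. Dhcr7 has 3 RefSeq starts, and the window printed, that of the first, held none of the 3 sets of letters. The second window of Dhcr7 held an E-box and the third 2 CCAAT boxes, but neither is printed, since both lie at or past annotated exons. A match describes letters only, and binding was not measured.

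The genes lie on 5 chromosomes in GENCODE M21 (mm10). Srebf2 (chromosome 15, 82147181 to 82205379, plus strand) contains Mir33 and overlaps Gm49502 on its own strand. Fdft1 (chromosome 14, 63145150 to 63179578, minus strand) overlaps the cathepsin gene Ctsb on the opposite strand, and the strand setting of the quantification is not given in the sources used here, so its values are uncertain. Hmgcs1 (chromosome 13, 119690379 to 119708260) and Idi1 (chromosome 13, 8885501 to 8892451), both on the plus strand, each overlap 1 predicted gene on the other strand. Insig1 (chromosome 5, 28071363 to 28078662), Sqle (chromosome 15, 59315077 to 59331192) and Dhcr7 (chromosome 7, 143823145 to 143848410) overlap no other annotated gene and lie on the plus strand.

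Values are TPM, shares of each library corrected for gene length, so they can be compared between genes but keep no record of depth, and no counting interval is given. Siah1a stood at 16.59, 6.72 and 13.35 TPM across WT and at 0, 0 and 0.05 in Lyz2cre, and Siah2 averaged 14.5 TPM ± 2.47 in WT against 1.63 TPM ± 0.275 for Lyz2cre (SD, n = 3 each). In CD11ccre, Siah1a was listed at 0 and Siah2 stood at 1.21 TPM. Lyz2, the lysozyme gene usually abundant in macrophages, made up 5.07% of the TPM in CD11ccre but only 0.00466% to 0.00863% in the 6 other libraries. The WT labels do not account for the low WT values. Among all genes tested, 6.76% were called in limma for Lyz2cre and 2.89% for CD11ccre. All 14 alveolar macrophage markers listed were detected and tested, and 7 of them were called in limma for Lyz2cre. Marco, Chil3, Car4, Fabp4 and Plet1 rose, while Fabp1 and Siglecf, whose protein was a sorting marker, fell. The mean of Siglecf was 231 TPM for WT against 84.5 TPM for Lyz2cre (adjusted p = 0.00746), with 53.87 TPM for CD11ccre (adjusted p = 0.0136). For CD11ccre 5 were called, Chil3, Car4 and Fabp4 higher and Siglecf and Fabp1 lower. Of markers of other lung cells, the 10 of alveolar type 2 cells summed to 90.03 to 97.1 TPM in WT, 81.81 to 98.63 TPM with the Lyz2cre deletion, beside 73.81 TPM for CD11ccre. Of these 10, 6 were tested and 0 were called in Lyz2cre. At an unadjusted p under 0.05 in limma, 2 of the 6 were higher and 1 lower, beside 5.96% and 18.7% of all genes tested. The neutrophil list of 5 summed to 36.28 to 77.72, 108.3 to 154.8 and 139.6 TPM, led in the deletion lines by S100a8 (24.9 TPM on average for WT, 100.9 TPM for Lyz2cre), with Ly6g at 0 in every library. Of the 3 neutrophil markers tested, 2 were higher and 1 lower in Lyz2cre, each at an unadjusted p under 0.05 in limma. Among all genes tested 24.6% had such a p. The signs in CD11ccre split in the same way. In Lyz2cre, 1 of the 3 was called in limma, higher than in WT, beside 2.17% called higher among all genes tested. The 6 dendritic cell markers summed to 5.93 to 24.9, 2.26 to 4.82 and 2.56 TPM. Of the 2 dendritic cell markers tested, Batf3 fell in Lyz2cre (14.9 TPM on average for WT, 0.98 TPM for Lyz2cre, adjusted p = 0.0374). The other tested marker was higher, with an unadjusted p under 0.05 in limma, but was not called. Of the 6 listed, 3 stayed under 1 TPM in every library. Airway markers summed to 111.9 to 212.8, 94.29 to 279.5 and 204.8 TPM, and all 4 endothelial markers stayed under 1 TPM. The part of these marker differences in the results below was not tested. In bulk RNA, a lower level from fewer cells of a type and from less RNA per cell cannot be told apart.

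Mitochondrial genes took 7.54% to 9.25% of the TPM in WT and 2.67% to 4.61% in the deletion lines. Ferritin chains Ftl1 and Fth1 and Chil3 took 4.9% to 5.29% of the TPM in WT, 14.4% to 16.3% in Lyz2cre and 14% in CD11ccre, a change opposite in direction to that of the mitochondrial share. The median log2 fold change of all 11397 genes tested, on the log2(TPM + 1) scale used for every fold change below, was -0.17 when Lyz2cre was set against WT and -0.29 when CD11ccre was. Scaling by the median of ratios moved these medians to 0 and -0.002. Rescaling without Ftl1, Fth1, Chil3, Lyz2 and the mitochondrial genes moved them to -0.08 and -0.14. The cause of the lower medians was not tested. In limma with Benjamini-Hochberg adjustment, 771 genes were called at an adjusted p under 0.05 in Lyz2cre against WT, 247 higher and 524 lower. With median-of-ratios scaling the split was 340 higher and 206 lower. CD11ccre gave 102 higher and 227 lower against WT, or 153 higher and 85 lower with that scaling.

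In WT the 7 genes were expressed at moderate levels, all above the middle of the genes tested. Hmgcs1, which makes HMG-CoA at the entry of the pathway, was the most abundant at 78.3 TPM ± 2.34 (SD, n = 3), above 84.3% of tested genes. Insig1 followed at 64.3 TPM ± 4.62 and Idi1, which isomerises the first isoprenoid unit, at 41.7 TPM ± 6.74 (SD, n = 3 each). The ranges of these 3 did not overlap one another or that of the next gene. Srebf2 (27.6 TPM ± 3.07), Dhcr7 (24.8 TPM ± 1.59), Fdft1 (23.2 TPM ± 1.80) and Sqle (22.2 TPM ± 2.10; SD, n = 3 each) came next, and each overlapped its neighbour in that order.

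**Figure D1:**
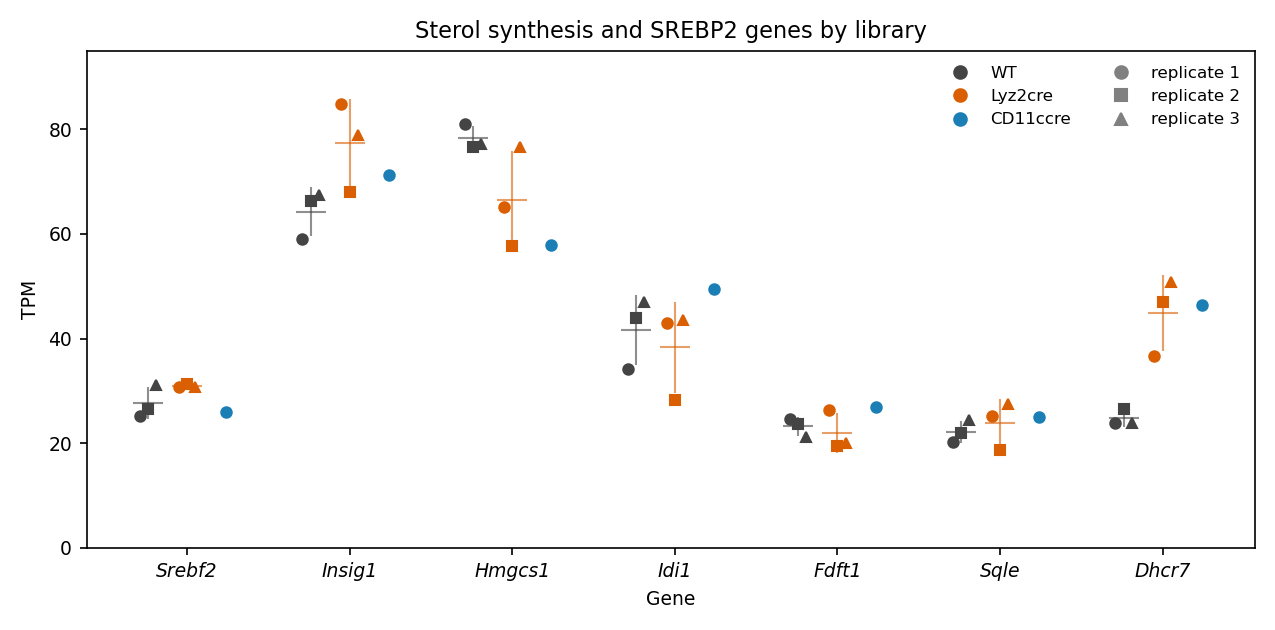
TPM of the 7 sterol genes in each library, with colour for the genotype and marker shape for the replicate number; horizontal and vertical lines are the mean and SD of the 3 WT and 3 Lyz2cre libraries. Dhcr7 stood at 23.82 to 26.61 TPM in WT and at 36.70 to 50.74 TPM in the deletion lines, while the WT and Lyz2cre ranges of 4 of the other 6 genes overlapped.

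Comparing Lyz2cre with WT, Dhcr7 rose and the other 6 genes were not called. Dhcr7 encodes the reductase that turns 7-dehydrocholesterol into cholesterol, the last step of one route of the pathway. It stood at 23.90, 26.61 and 23.82 TPM across WT, at 36.70, 47.07 and 50.74 TPM with the Lyz2cre deletion, beside 46.43 TPM for CD11ccre. Every deletion library thus lay above every WT library, and Dhcr7 moved from the fifth most abundant of the 7 genes in WT to the third in Lyz2cre, where its range overlapped that of Idi1.

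The ratio of mean TPM was 1.81 for Lyz2cre and 1.87 for CD11ccre. In limma the log2 fold change of Lyz2cre against WT was 0.82 ± 0.16 (SE, adjusted p = 0.0268, 95% interval 0.46 to 1.18). The call of 1 of 7 genes stands beside 6.76% called among all genes tested, 2.17% higher and 4.6% lower, and 1 call among 7 is too few to describe the group. An exact two-sided permutation test of mean TPM gave p = 0.1, the smallest that 3 against 3 libraries allow. The Dhcr7 call ended when WT replicate 1, 2 or 3 was left out (adjusted p = 0.0878, 0.0746 and 0.0707) or Lyz2cre replicate 2 or 3 (0.0968 and 0.103), and held without Lyz2cre replicate 1 (0.0372). It also ended with no filter on low values (0.0633), without limma's trend (0.0554) and with the replicate block (0.0538), while its log2 fold change stayed between 0.73 and 1.00 over the 17 alternatives.

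The CD11ccre library gave a log2 fold change of 0.88 for Dhcr7, which was not called (adjusted p = 0.0776, 95% interval 0.37 to 1.40; the lone library is assumed to vary like the others). In that comparison 0 of the 7 genes were called, against 2.89% of all genes tested (0.895% higher and 1.99% lower), and 1 of the 7, Dhcr7, had an unadjusted p under 0.05 in limma (0.00462), against 22.3% of all genes (3.45% higher and 18.8% lower). Of the 7 genes, 5 lay above all WT libraries in CD11ccre, 1 (Hmgcs1) lay below and 1 (Srebf2) inside the WT range. Among all genes tested, 63.5% lay outside the WT range, 13% above it and 50.5% below it. Both comparisons use the same WT libraries. Between CD11ccre and Lyz2cre 0 of the 7 were called in limma and 0 had an unadjusted p under 0.05, against 0.114% and 6.1% of all genes, with a Dhcr7 difference of 0.06 and a 95% interval of -0.45 to 0.58.

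The feedback pair Insig1 and Srebf2 had smaller fold changes than Dhcr7, and neither was called. Insig1 stood at 58.97, 66.30 and 67.50 TPM across WT, at 84.88, 68.07 and 78.99 TPM with the Lyz2cre deletion, beside 71.26 TPM for CD11ccre. All 4 deletion libraries lay above WT, the closest by less than 1 TPM, but the log2 fold change for Lyz2cre of 0.26 ± 0.13 (SE) was not called (adjusted p = 0.264, 95% interval -0.04 to 0.56). Srebf2 stood at 25.18, 26.57 and 31.05 TPM across WT, at 30.71, 31.31 and 30.82 TPM with the Lyz2cre deletion, beside 26.05 TPM for CD11ccre. The 3 Lyz2cre libraries were close to one another at the top of the WT range, and the log2 fold change was 0.17 ± 0.13 (SE, adjusted p = 0.489, 95% interval -0.14 to 0.47).

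Hmgcs1 was the gene with the lowest fold change of the 7 in both comparisons. It stood at 80.98, 76.69 and 77.21 TPM across WT, at 65.08, 57.75 and 76.53 TPM with the Lyz2cre deletion, beside 57.96 TPM for CD11ccre. No deletion library reached the WT range, although Lyz2cre replicate 3 missed it by less than 1 TPM. The log2 fold changes of -0.24 ± 0.13 (SE, adjusted p = 0.307) for Lyz2cre and -0.43 ± 0.19 (SE, adjusted p = 0.235) for CD11ccre were not called in limma. Relative to the median of all genes they were -0.08 and -0.14. The other genes of the 7 lay above that median, by 0.03 (Idi1) to 0.98 (Dhcr7) in Lyz2cre and 0.22 (Srebf2) to 1.17 (Dhcr7) in CD11ccre. Whether the group differs from all genes was not tested.

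The ranges of WT and Lyz2cre did not overlap for 3 of the 7 genes, Dhcr7 and Insig1 above WT and Hmgcs1 below. Among all genes tested 30.8% did not overlap, 7.45% higher and 23.3% lower.

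The genes between the ends of the pathway overlapped in level between WT and Lyz2cre. Idi1 stood at 34.10, 43.86 and 47.03 TPM across WT, 42.93, 28.34 and 43.63 TPM with the Lyz2cre deletion, beside 49.48 TPM for CD11ccre, and its Lyz2cre difference had a 95% interval of -0.62 to 0.36. Fdft1, the squalene synthase gene, stood at 24.69, 23.74 and 21.20 TPM across WT, 26.38, 19.39 and 20.06 TPM with the Lyz2cre deletion, beside 26.98 TPM for CD11ccre (interval -0.47 to 0.29). Sqle, whose product adds oxygen to squalene at a rate-limiting step, stood at 20.22, 21.97 and 24.41 TPM across WT, 25.14, 18.77 and 27.58 TPM with the Lyz2cre deletion, beside 25.03 TPM for CD11ccre (interval -0.33 to 0.50). These intervals reach well to both sides of 0, so the missing calls do not show equal levels. The direction of the Idi1, Fdft1 and Sqle differences changed with the scaling or the libraries used.

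**Figure D2:**
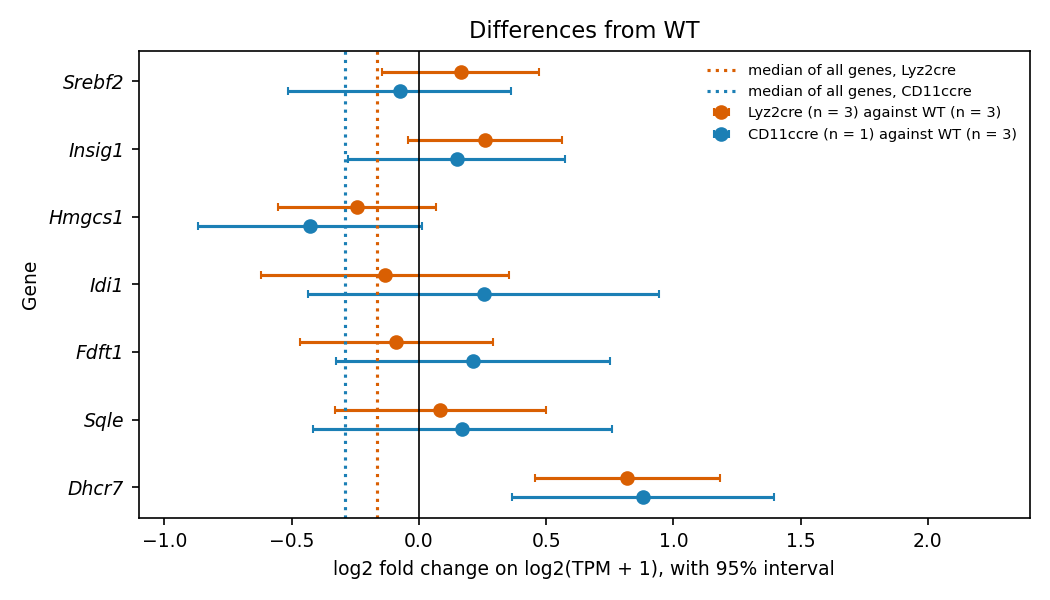
Log2 fold changes against WT on the log2(TPM + 1) scale for the 7 sterol genes, with unadjusted 95% intervals from limma; dotted lines are the medians of all 11397 genes tested. The Dhcr7 intervals, 0.46 to 1.18 and 0.37 to 1.40, lie to the right of 0, and those of the other 6 genes include 0.

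Ratios between genes of the same library do not depend on how the library was scaled. The ratio of Dhcr7 to Hmgcs1 TPM was 0.295, 0.347 and 0.309 in WT, 0.564, 0.815 and 0.663 in Lyz2cre and 0.801 in CD11ccre. Its mean was 2.15 times as high in Lyz2cre as in WT. Against each of the other 6 genes, the Dhcr7 ratio was higher in all 3 Lyz2cre libraries than in any WT library, with mean ratios 1.52 (against Insig1) to 2.15 times those of WT. The same held for 3.04% of the tested genes outside those 6. The narrowest gap was against Insig1, with 0.405, 0.401 and 0.353 in WT and 0.432, 0.691 and 0.642 in Lyz2cre. These ratios were chosen after the values of Dhcr7 were seen, and each exact two-sided permutation p was 0.1, the smallest possible.

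**Figure D3:**
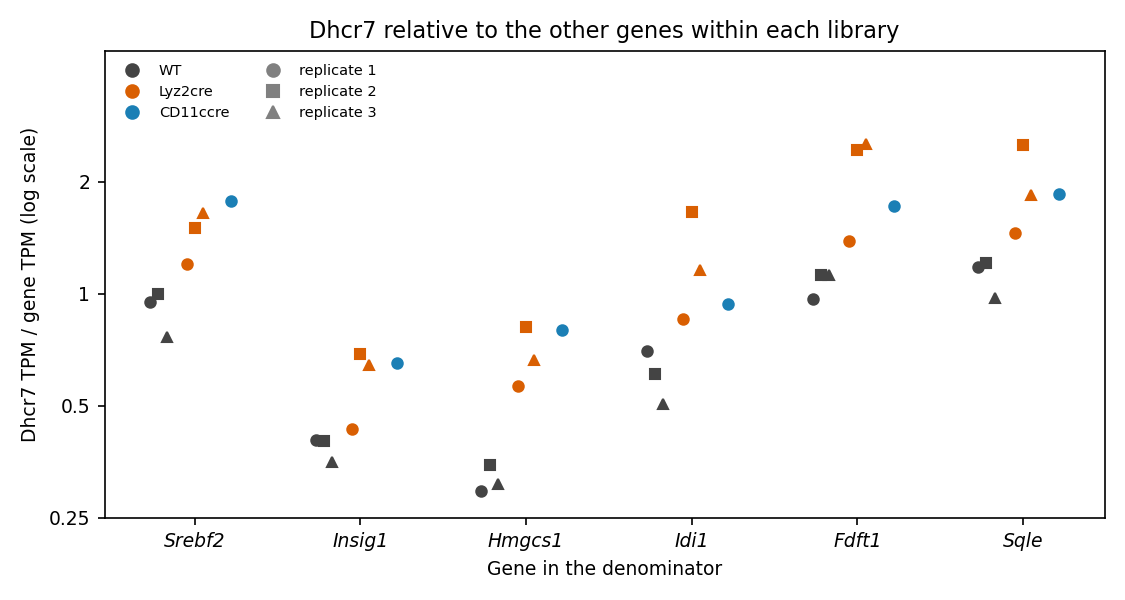
Ratio of Dhcr7 TPM to the TPM of each of the other 6 genes in each library, on a log axis, with colour for the genotype and marker shape for the replicate number. All 4 deletion libraries lie above all 3 WT libraries for every gene in the denominator; for Insig1 the lowest Lyz2cre ratio, 0.432, is close to the highest WT ratio, 0.405.

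Summed over the 22 sterol synthesis enzymes (5 of the 7 genes and 17 others listed), the transcripts came to 712.6 to 744.3 TPM in WT, 693.5 to 788.4 TPM with the Lyz2cre deletion, beside 767.8 TPM for CD11ccre. Dhcr7 made up 3.2% to 3.73% of that sum in WT, 4.93% to 6.79% in Lyz2cre and 6.05% in CD11ccre. Within Lyz2cre, replicate 2 was the lowest of the 3 libraries for 5 of the 7 genes (Insig1, Hmgcs1, Idi1, Fdft1 and Sqle) and for 14 of the 22 enzymes, against 31% of all genes tested. Dhcr7 was lowest in replicate 1 instead. That count was chosen after the values were seen.

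Of the 17 other enzymes of the mevalonate and sterol steps, 0 were called in limma in either comparison, and their median log2 fold change was 0.03 for Lyz2cre and 0.05 for CD11ccre. Fdps, which makes farnesyl diphosphate, stood at 78.17, 67.85 and 84.66 TPM across WT, 104.72, 95.64 and 106.17 TPM with the Lyz2cre deletion, beside 100.54 TPM for CD11ccre. Its log2 fold change for Lyz2cre was 0.41 (adjusted p = 0.0940), and it was called with median-of-ratios scaling (0.59, adjusted p = 0.0391). Mvd, the decarboxylase ahead of Idi1, averaged 72.1 TPM ± 10.6 in WT against 51.2 TPM ± 8.15 for Lyz2cre (SD, n = 3 each; adjusted p = 0.133). Fdps and Mvd, both in the isoprenoid stretch of the pathway, thus had differences of opposite sign, neither called at the deposited scaling. At an unadjusted p under 0.05 in limma, 3 of the 17 passed for Lyz2cre (Fdps higher, Mvd and the lamin B receptor gene Lbr lower) and 2 for CD11ccre. Of all genes tested 24.6% passed for Lyz2cre (5.96% higher and 18.7% lower) and 22.3% for CD11ccre, so neither count exceeds the background share.

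Among 14 genes of SREBP processing and sterol sensing, 0 were called in either comparison, with a median of -0.18 for Lyz2cre and -0.35 for CD11ccre beside medians of -0.17 and -0.29 for all genes. Ubxn4, which helps degrade membrane proteins of the endoplasmic reticulum, had the smallest p for Lyz2cre (85.8 TPM ± 21.6 in WT against 53.7 TPM ± 2.12 for Lyz2cre; SD, n = 3 each; adjusted p = 0.0814), followed by Erlin1, a sterol-sensing partner of that machinery (17.8 TPM ± 3.60 and 11.9 TPM ± 0.999; SD, n = 3 each; adjusted p = 0.140). Srebf1, the gene of the related factor SREBP1, stood at 48.86, 40.30 and 38.17 TPM across WT, 44.57, 43.05 and 40.30 TPM with the Lyz2cre deletion, beside 22.90 TPM for CD11ccre. The CD11ccre value lay below all 6 other libraries, with a log2 fold change of -0.85 against WT (adjusted p = 0.0645). At an unadjusted p under 0.05 in limma, 3 of the 14 passed in each comparison, all lower, a share near that of all genes (18.7% and 18.8% lower).

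Of the 11 genes of sterol uptake and other SREBP2 targets, 9 were tested and 0 were called, with a median of 0.13 for Lyz2cre and 0.01 for CD11ccre. The cholesterol transporter gene Npc1 averaged 73.0 TPM ± 8.80 in WT against 92.8 TPM ± 5.11 for Lyz2cre (SD, n = 3 each; adjusted p = 0.153) and 73.78 TPM in CD11ccre. Of the 9, 2 passed at an unadjusted p under 0.05 in limma for Lyz2cre, Npc1 among them, and both were higher. Of all genes tested 24.6% passed for Lyz2cre, 5.96% higher and 18.7% lower.

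The fatty acid targets of SREBP1 moved both ways. Of 9 tested genes out of 12, 1 was called higher and 2 lower in Lyz2cre against WT, and the median was -0.41. Among all genes tested 2.17% were called higher and 4.6% lower. At an unadjusted p under 0.05 in limma, 3 of the 9 passed, beside 24.6% of all genes. Scd2, a stearoyl-CoA desaturase gene, fell 2.77-fold from a mean of 18.6 TPM ± 1.47 down to 6.72 TPM ± 2.4 (SD, n = 3 each; adjusted p = 0.0250), and Elovl5, a fatty acid elongase gene, fell 1.83-fold from a mean of 111 TPM ± 20.2 down to 60.9 TPM ± 5.62 (SD, n = 3 each; adjusted p = 0.0257). Me1, the cytosolic malic enzyme gene and also a known NRF2 target, rose from 0.95, 0.68 and 0.10 TPM to 4.87, 3.69 and 4.45 TPM (adjusted p = 0.0202). Its WT mean of 0.577 TPM lies under the filter of 1 TPM, so Me1 was tested only through its level in the deletion libraries. The size of its rise depended on the pseudocount, with log2 fold changes of 0.74 and 3.01 at pseudocounts of 5 and 0.1. In CD11ccre, Scd2, Elovl5 and Me1 stood at 6.41, 61.70 and 5.39 TPM. None was called there at the main settings, though Me1 was called under some alternatives. The Scd2 call ended without WT replicate 1, 2 or 3 or Lyz2cre replicate 3 (adjusted p 0.0964, 0.0887, 0.0770 and 0.0812) and with no filter on low values (0.0837). The Elovl5 call ended without WT replicate 1 or 3 or Lyz2cre replicate 1, 2 or 3 (0.0877, 0.0586, 0.0686, 0.0918 and 0.1) and with no filter (0.0707), without the trend (0.0594), with quantile normalization (0.0742) or with median-of-ratios scaling (0.0578). In Lyz2cre, Me1 lost its call when WT replicate 2 or Lyz2cre replicate 1, 2 or 3 was left out (0.0599, 0.0757, 0.0670 and 0.0870), with no filter (0.0564) and with the replicate block (0.0552).

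The calls of Ch25h and Lpcat3, on the list of LXR and cholesterol export, held in all 17 alternatives for Lyz2cre. Ch25h, whose product makes 25-hydroxycholesterol, a sterol known to hold back SREBP2 through INSIG, stood at 10.85, 10.86 and 14.67 TPM across WT, 37.04, 47.86 and 47.99 TPM with the Lyz2cre deletion, beside 56.03 TPM for CD11ccre. It rose 3.65-fold in Lyz2cre (log2 fold change 1.79 ± 0.18, SE, adjusted p = 0.00349) and 4.62-fold in CD11ccre (adjusted p = 0.0106). Lpcat3, a phospholipid-remodelling enzyme gene switched on by the sterol receptor LXR, fell 1.83-fold in Lyz2cre, from a mean of 117 TPM ± 3.11 down to 64.2 TPM ± 4.79 (SD, n = 3 each; adjusted p = 0.00746). Its CD11ccre level of 53.96 TPM was also called (adjusted p = 0.0186). In CD11ccre the Ch25h call ended without WT replicate 1 or 2 (0.0520 and 0.0593) and with the replicate block (0.0563). The Lpcat3 call ended without WT replicate 1 or 2 (0.0577 and 0.0646), with median-of-ratios scaling or quantile normalization (0.0648 each), without the trend (0.0581) and with the replicate block (0.0867).

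Mylip, an LXR target that encodes a ubiquitin ligase, fell 1.69-fold in Lyz2cre, from a mean of 20.99 TPM ± 1.33 down to 12.4 TPM ± 1.60 (SD, n = 3 each; adjusted p = 0.0393). Leaving out any 1 of these 6 libraries ended the call, at adjusted p 0.0731 to 0.13, as did no filter (0.0641), median-of-ratios scaling (0.101), quantile normalization (0.0984), rescaling without the abundant and mitochondrial genes (0.0696), no trend (0.0567) and the replicate block (0.0899). The other 7 of the 10 genes on the LXR and cholesterol export list were not called in Lyz2cre, and the list's median was -0.08. Its calls, 1 higher and 2 lower, stand beside 2.17% called higher and 4.6% called lower among all genes tested. At an unadjusted p under 0.05 in limma, 6 of these 10 passed for Lyz2cre, 2 higher and 4 lower. Of all genes tested 24.6% passed, 5.96% higher and 18.7% lower. Abcg1, a cholesterol exporter gene and the most abundant of the list, stood at 664.96, 610.63 and 679.72 TPM across WT, 542.80, 573.50 and 498.38 TPM with the Lyz2cre deletion, beside 567.48 TPM for CD11ccre (adjusted p = 0.141 for Lyz2cre). Of the 10 isoprenoid branch genes 0 were called in either comparison, with a median of -0.16 in Lyz2cre, and the 2 with the smallest p were Fnta (56.4 TPM ± 9.19 in WT against 41.8 TPM ± 2.54 for Lyz2cre; SD, n = 3 each; adjusted p = 0.153) and Nus1 (102 TPM ± 3.50 and 115 TPM ± 8.32; SD, n = 3 each; adjusted p = 0.345). Unadjusted, 1 of the 10 (Fnta) had p under 0.05 in limma for Lyz2cre and 2 for CD11ccre, beside 24.6% and 22.3% of all genes.

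**Figure D4:**
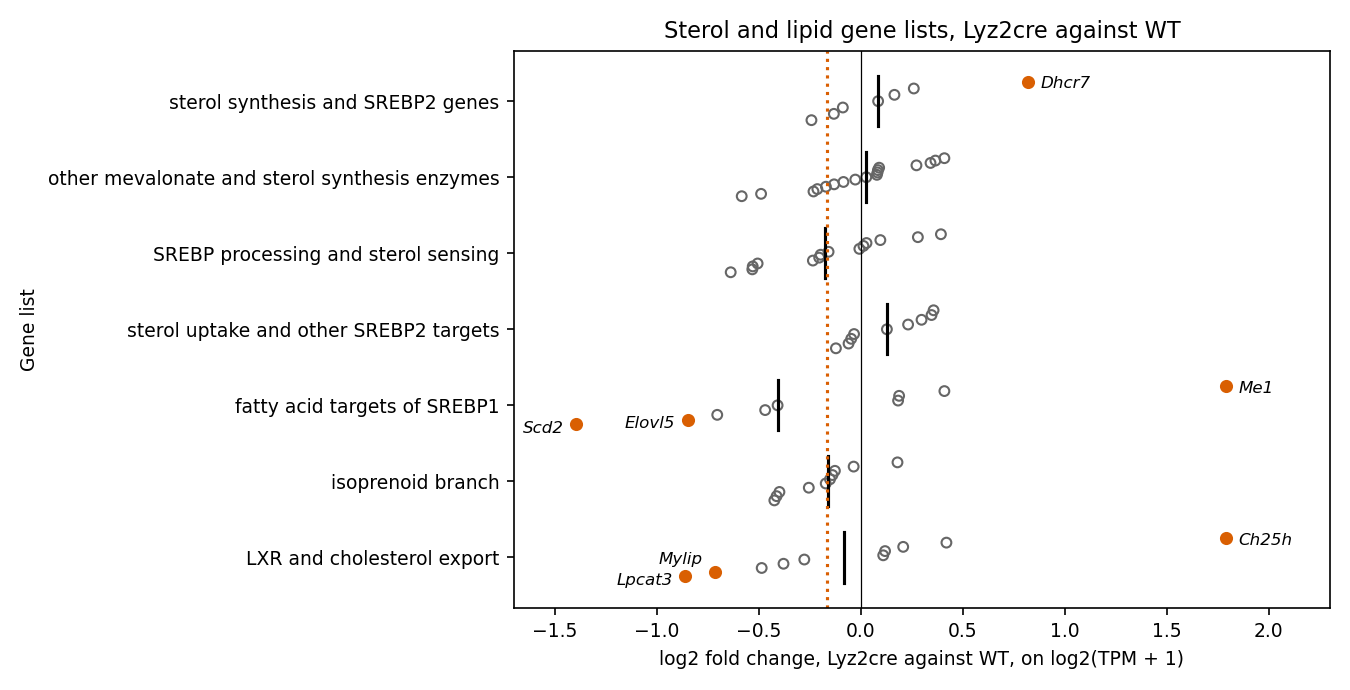
Log2 fold changes of Lyz2cre against WT on the log2(TPM + 1) scale for the tested genes of 7 lists; filled points were called at an adjusted p under 0.05, black bars are list medians, and the dotted line is the median of all genes, -0.17. Dhcr7 is the 1 called gene among the 22 sterol synthesis enzymes, and the other called genes lie on the fatty acid and LXR lists.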

How the data were processed

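Libraries were directional, from poly(A) RNA, with single-end reads, per the labels' protocols. STAR 2.7.0d, RSEM 1.3.1, cutadapt 2.3 and mm10 are listed, per the submitters' processing notes. Parameters, annotation and strand setting: not given in the sources used here. The authors deposited TPM, length-corrected and summing to 1000000 per library, so depth is unknown. Groups came from the titles. Coordinates came from GENCODE M21, which matched 47224 of 47643 IDs.

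The genes and lists were chosen with earlier results of these data known. Limma 3.58.1 (R 4.3.3) was fitted across all genes on log2(TPM + 1), with a pseudocount of 1, genes of mean TPM at least 1, all 7 libraries, 1 coefficient per genotype and limma's trend. The residual degrees of freedom were 4 and the prior ones 3.35. P-values, two-sided, were Benjamini-Hochberg adjusted over 11397 genes. Mean TPM was compared by exact permutation. The fit was tested on simulated data. Named list genes were up to 4 called genes per list and comparison with the smallest p, or, where none was called, the 2 with the smallest p (given for Lyz2cre against WT), plus Srebf1, Siah1a and Siah2; some genes of the rule are not reported here. Abcg1, Lbr and the marker genes were named after their values were seen. Alternatives changed pseudocount, filter, scaling, limma settings, the replicate block and the libraries used.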

Additional observations from a re-analysis of the deposited data

How the results depend on the processing

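The call of 1 of 7 sterol genes in Lyz2cre against WT became 0 with no filter, without the trend and with the replicate block, and ran from 0 to 1 when 1 library was left out. In CD11ccre it stayed 0 throughout. Over all genes, Lyz2cre against WT gave 771 calls, and 342 with no filter, 436 without the trend, 390 with the replicate block and 203 to 441 with 1 library left out. CD11ccre against WT gave 329 calls, and 201 with quantile normalization, 122 without the trend, 21 with the replicate block and 23 to 170 with 1 library left out. CD11ccre against Lyz2cre gave 13 calls, and 210 with no filter, 3 with the replicate block and 1 to 17 with 1 library left out. Leaving out a library or adding the block lowers the residual degrees of freedom, and no filter raises the number of genes tested. What caused the changes in these counts was not tested. Same-numbered WT and Lyz2cre libraries did not deviate together (r of deviations across genes -0.0149, 0.0431 and 0.0656), so the numbers were not taken as pairs, and not every library correlated best with its own number (WT replicates 2 and 3 and Lyz2cre replicate 3 did). Uncalled log2 fold changes changed sign as follows. For Lyz2cre, Idi1 (-0.13) was 0.048 with median-of-ratios scaling and 0.046 with quantile normalization and ran from -0.27 to 0.066 with 1 library left out. Fdft1 (-0.09) was 0.089, 0.068 and 0.003 with median-of-ratios scaling, quantile normalization and rescaling without Ftl1, Fth1, Chil3, Lyz2 and mitochondrial genes, and Sqle (0.09) ran from -0.025 to 0.24 with 1 library left out. For CD11ccre, Srebf2 (-0.08) was 0.24, 0.21 and 0.09 under the same 3 scalings and ran from -0.14 to 0.01 with 1 library left out. Depth is unknown, so the counting error behind these TPM cannot be given.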

Other observations

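Of the 21 pairs among the 7 sterol genes, 11 had TPM ratios that did not overlap between WT and Lyz2cre, 6 of them pairs with Dhcr7 and 5 without. Set against Dhcr7, the ratios of 70.3% of all genes tested did not overlap, as did not 40.2% against Insig1, 36.9% against Srebf2 and 12.7% to 22.3% against the other 4 genes. The ratio of Insig1 to Hmgcs1, the feedback gene over the HMG-CoA synthase gene, was 0.728, 0.865 and 0.874 in WT, 1.3, 1.18 and 1.03 in Lyz2cre and 1.23 in CD11ccre, so Hmgcs1 was the more abundant of the pair in all WT libraries and Insig1 in all deletion libraries. The exact two-sided permutation p was 0.1, the smallest possible, and this pair was picked with its values in view. The shares of all genes that did not overlap against these 2 genes were 40.2% for Insig1 and 20.4% for Hmgcs1.

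The mean standardized log2(TPM + 1) of the 7 genes was highest in Lyz2cre replicates 3 and 1 (0.58 and 0.55) and lowest in Lyz2cre replicate 2 and WT replicate 1 (-0.63 and -0.61). Over the 7 libraries and 8471 genes outside the lists with a mean of at least 5 TPM, the genes most like it were Zfr (Pearson's r 0.963), Bub1 (0.938), Tcea1 (0.919), Slmap (0.906) and Ap3s1 (0.893). These are a description of shared variation between libraries, whose depth is unknown and whose composition differed.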
